A study of Mus musculus with 16 samples.

Results

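The 32 genes described here encode enzymes and regulators of cholesterol and fatty acid synthesis. They were chosen by name, as rows of the deposited gene table, and not by their values. All 32 were found among the 46320 genes of that table, and all 32 passed the filter on low counts that left 15610 genes for testing, with 128 to 6276 counts per gene and library. Of these, 19 act in the making or carrying of cholesterol, 4 regulate the pathway, and 9 make or modify fatty acids.

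RNA was sequenced from macrophages grown from the bone marrow of C57BL6/J mice. The marrow cells spent 7 days in medium that L929 cells had conditioned, a source of the macrophage growth factor M-CSF, and 400000 macrophages per well then spent 4 h in medium with 0.5% serum, so all groups had been serum-starved. They were next exposed for 4 h to PBS as the vehicle, to thrombin, to resting platelets or to platelets activated by thrombin, with 4 libraries in each of the 4 groups and 16 in all. Thrombin is the clotting protease that also activates platelets, and the platelets came from C57BL6/J blood. The thrombin dose is 0.1 U/mL in the sample labels and 0.01 U/mL in the treatment protocol, and the labels of the activated platelet group give no dose, so comparisons between the groups with thrombin assume that their doses were alike. The labels do not say whether libraries with different numbers came from separate mice or cultures, so p-values measure the spread between these libraries, which may in part be technical. In bulk RNA, fewer cells that express a gene and less of its RNA per cell cannot be told apart.

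Cells make cholesterol from acetyl-CoA through a long chain of enzymes, in which early steps form mevalonate, squalene epoxidase and lanosterol synthase close the first sterol, and a late series of enzymes trims lanosterol to cholesterol. The chain is controlled by SREBP transcription factors, which are held in the endoplasmic reticulum by SCAP and the INSIG proteins while sterols are plentiful and are released to the nucleus when sterols run low. SREBP-2 acts mainly on cholesterol genes and SREBP-1 mainly on fatty acid genes, and in macrophages this pathway is known to be tied to cholesterol loading and to inflammatory activation.

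SREBPs bind sterol regulatory elements near gene starts together with the factors NF-Y and Sp1, so the promoters of these genes were searched for the element core TCACNCCAC, the NF-Y box CCAAT, the E-box CACGTG and the Sp1 box GGGCGG, on both strands. RefSeq promoter windows on GRCm38.p6 were found for 25 of the 32 genes, as 31 windows, of which the 250 bases before the start were searched. Fdps, Fdft1, Sqle, Stard4, Scd1, Scd2 and Fads1 had no window and were not searched. Windows of 1 gene can overlap. The 160 bases before the start are printed, 5′ to 3′ along the gene's strand, for the genes past the test threshold in some comparison below, without the replicate block described later, that have 1 window with an NF-Y box. This choice was made after the values were seen, and capitals mark any match of the 4 motifs on either strand. The windows lie at chr2:155517883-155518042 (Acss2, plus strand), chr5:4104698-4104857 (Cyp51, minus strand), chr13:119690191-119690350 (Hmgcs1, plus strand), chr10:76531445-76531604 (Lss, plus strand) and chr9:42264301-42264460 (Sc5d, minus strand).
Acss2: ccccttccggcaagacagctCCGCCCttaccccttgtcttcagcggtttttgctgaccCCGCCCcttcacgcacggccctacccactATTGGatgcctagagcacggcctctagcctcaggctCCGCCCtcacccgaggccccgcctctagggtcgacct
Cyp51: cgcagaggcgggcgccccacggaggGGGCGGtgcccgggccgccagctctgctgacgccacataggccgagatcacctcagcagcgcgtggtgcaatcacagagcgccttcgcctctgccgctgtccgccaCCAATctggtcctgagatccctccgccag
Hmgcs1: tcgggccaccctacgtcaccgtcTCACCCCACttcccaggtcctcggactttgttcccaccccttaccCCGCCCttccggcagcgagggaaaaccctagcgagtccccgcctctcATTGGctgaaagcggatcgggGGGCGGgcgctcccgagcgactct
Lss: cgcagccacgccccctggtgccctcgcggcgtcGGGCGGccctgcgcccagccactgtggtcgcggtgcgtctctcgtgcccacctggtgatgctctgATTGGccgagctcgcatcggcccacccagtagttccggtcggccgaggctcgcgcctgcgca
Sc5d: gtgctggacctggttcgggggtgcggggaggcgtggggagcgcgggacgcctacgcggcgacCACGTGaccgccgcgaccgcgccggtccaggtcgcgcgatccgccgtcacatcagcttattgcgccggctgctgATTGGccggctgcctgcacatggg

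The Hmgcs1 window holds the element core as TCACCCCAC, with 128 bases between it and the start, and an NF-Y box and Sp1 boxes downstream of it. The starts of the Hmgcs1 and Sc5d windows do not open a transcript in GENCODE, as those of 27 of the 31 windows do. The Hmgcs1 window was the 1 of 31 with the core (3.23%), against 1.05% of all 32851 promoter windows of the same length. NF-Y boxes were found in 20 of the 31 windows (64.5%), against 33.8% of all windows, and in 14 of the 18 windows of cholesterol genes (77.8%) against 2 of the 6 of fatty acid genes (33.3%). Sp1 boxes stood in 23 windows (74.2% against 32.7%; 42.6% of the windows of protein-coding genes) and E-boxes in 5 (16.1% against 6.02%). Matches are a description of these letters and not of bound sites. Only exact matches were counted, so a window without the core, such as that of Cyp51, is not shown to lack an element.

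Libraries held 22555094 to 27691609 counts with vehicle, 23149061 to 26716910 with thrombin, 24857490 to 26355697 with resting platelets and 28034884 to 30602623 with activated platelets. The 8 macrophage markers, among them Adgre1, Csf1r and Cd68, were present in every group, with a summed level of 16300 to 21600 CPM (counts scaled to a library total of 1000000), most of it Lyz2. With activated platelets against vehicle, 1 of the 8 was higher and 2 lower by the test used below (7 of 8 passed with the block), and mean levels went from 289 to 195 CPM for Mrc1, from 211 to 158 CPM for Mertk and from 127 to 166 CPM for Fcgr1. Of the 17 platelet and megakaryocyte markers, the 16 other than Pf4 summed to 40.4 to 51.8 CPM with vehicle, 46.6 to 54.8 CPM with thrombin, 55.3 to 80.5 CPM with resting platelets and 188 to 258 CPM with activated platelets. RNA of the added platelets and of the macrophages cannot be told apart in these libraries, and its part in the results below was not tested. Gp9, a subunit of a platelet adhesion receptor and a defining marker of platelets, was at 0 in all vehicle and thrombin libraries. Libraries with the same replicate number were alike across groups. Those numbered 1 stood apart in sex as well, with Ddx3y of the Y chromosome at 85.1 to 93.2 CPM against at most 0.27 CPM in the other 12, and Xist at 1060 to 1290 CPM in those 12. Each comparison is therefore also given with the replicate number in the model as a block, and with replicate 1 left out.

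With vehicle the 32 genes spanned a wide range of levels when set per kilobase of exon. Fads1, the delta-5 desaturase of polyunsaturated fatty acid synthesis, was at 28.9 ± 0.742 CPM per kb (SD, n = 4), and Acly, which makes cytosolic acetyl-CoA from citrate, at 25.5 ± 0.266. Next came Hmgcs1, the HMG-CoA synthase, at 21.1 ± 1.63 CPM per kb, Msmo1, a sterol methyl oxidase, at 20.9 ± 1.68, Scd2, a stearoyl-CoA desaturase, at 20.3 ± 5.52, Srebf2, which encodes SREBP-2, at 20.1 ± 1.32, and Ebp, a sterol isomerase, at 19.9 ± 0.339. These 5 means lay within 1 SD of that of Hmgcs1, and their order is not resolved. At the low end stood Elovl6, an elongase of palmitate, at 1.35 ± 0.0583 CPM per kb, Hsd17b7, a sterol ketone reductase, at 1.6 ± 0.121, and Fdft1, the squalene synthase, at 1.74 ± 0.101. The length used was that of all exons of a gene combined, 5687 bases for Hsd17b7 and 10420 for Fdft1, and these places depend on it. Before division by length Fdft1 was at 18.2 ± 1.05 CPM.

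Thrombin alone was compared with vehicle to ask what the protease does without platelets. None of the 32 genes passed the threshold, an adjusted p under 0.05 by the quasi-likelihood test of edgeR with Benjamini-Hochberg adjustment over all 15610 genes. DESeq2 and limma-voom also called 0, while with edgeR 0.288% of all genes passed, 0.0897% higher and 0.199% lower. Before adjustment (p under 0.05) Sc5d was higher and Mvk lower, beside 865 higher and 921 lower of all 15610 genes. The median log2 fold change was -0.01 over the 32 genes and 0.01 over all genes. With the block, Sc5d and Fasn passed, 1 higher and 1 lower, or 2 of 32 genes against 8.23% of all genes (3.91% higher and 4.32% lower). Sc5d (chromosome 9, 42162888 to 42175607, GRCm39), the sterol C5 desaturase, stood at 36.6, 39.1, 37.2 and 32 CPM in vehicle replicates 1 to 4 and at 41.2, 42.9, 43.7 and 40.3 CPM with thrombin. All 4 thrombin libraries lay above all 4 vehicle libraries, the 1 gene of 32 for which the groups did not overlap (6.68% of all genes). It differed by 0.21 ± 0.06 in log2 (SE), and adjusted p was 0.19 without the block and 0.0148 with it. Fasn (chromosome 11, 120696784 to 120715992), the fatty acid synthase, went from 97.6, 79.3, 81.8 and 94.6 CPM to 88.8, 70.8, 75.3 and 81.2 CPM. It was lower within each number while the groups overlapped, and differed by -0.16 ± 0.10 in log2 (adjusted p = 0.605, and 0.014 with the block). Both block calls ended without replicate 1 or without replicate 4, and with a correction for GC content and length as well (adjusted p = 0.0746 for Sc5d and 0.372 for Fasn).

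Resting platelets were compared with vehicle to ask what platelets do before activation. Without the block edgeR called 0 of the 32 genes, against 3.39% of all genes (2.07% higher and 1.32% lower). Before adjustment p was under 0.05 for 5 higher and 4 lower genes, beside 1529 higher and 1472 lower of all 15610 genes. After adjustment limma-voom also called 0, and DESeq2 called 5 higher and 1 lower, for which no share of all genes is given here. With the block, 11 genes were higher and 4 lower, 15 of 32 against 21.5% of all genes (10.9% higher and 10.6% lower). Of the 19 cholesterol genes 8 were higher and 2 lower with the block, of the 4 regulators 1 and 1, and of the 9 fatty acid genes 2 and 1. The differences were small, between -0.30 and 0.38 in log2 over the 32 genes, and the median was 0.03 against 0 over all genes.

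Within replicate numbers, 13 of the 32 genes were higher with resting platelets than with vehicle in all 4 (18.8% of all genes), and 6 were lower in all 4 (18.2% of all genes). Among the 13 were 10 cholesterol genes, from Hmgcs1 to Stard4, a carrier of sterols, and among the 6 were 4 cholesterol genes, Mvk, Pmvk, the phosphomevalonate kinase, Tm7sf2 and Dhcr7. Cyp51 (chromosome 5, 4130674 to 4154697), the lanosterol demethylase, showed the largest difference. It stood at 37.7, 30.6, 32.3 and 33.4 CPM in vehicle replicates 1 to 4 and at 50.9, 43.9, 36.8 and 43.1 CPM with resting platelets. Each number was higher with platelets, although the lowest platelet library lay below the highest vehicle library. The log2 fold change was 0.38 ± 0.11 (SE; adjusted p = 0.0747, and 1.06e-05 with the block).

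Hmgcs1 (chromosome 13, 120151887 to 120169796), whose promoter holds the element core printed above, stood at 97.8, 90.4, 84 and 82.9 CPM with vehicle and at 106, 104, 96.2 and 97.6 CPM with resting platelets. It was higher by 0.12 to 0.24 in log2 within the numbers, and the 2 groups overlapped. The log2 fold change was 0.19 ± 0.06 (adjusted p = 0.0815, and 0.000323 with the block). Sqle (chromosome 15, 59186941 to 59203042), the squalene epoxidase that opens the steps toward sterols, went from 24.9, 18, 19.9 and 19.9 CPM to 27, 24.5, 23.2 and 25.8 CPM. Replicate 1 was the highest library of each group. The log2 fold change was 0.28 ± 0.13 (adjusted p = 0.269, and 0.00232 with the block). Fdft1 went from 18.2 ± 1.05 to 21.6 ± 0.789 CPM (SD, n = 4), and its groups did not overlap, as for 4 of the 32 genes (11.5% of all genes). Its adjusted p was 0.0864 without the block and 0.00195 with it.

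The other cholesterol genes higher with the block were Idi1, the isopentenyl diphosphate isomerase, Fdps, the farnesyl diphosphate synthase, Msmo1 and Hsd17b7, by 0.17 to 0.31 in log2 (adjusted p = 0.00118 to 0.0259 with the block). The lower genes were Mvk, mevalonate kinase, and Dhcr7 (chromosome 7, 143376825 to 143402147), the reductase that ends one branch of cholesterol synthesis. Dhcr7 stood at 22, 23.5, 21.4 and 20.4 CPM with vehicle and at 18, 19.9, 17.1 and 16 CPM with resting platelets. All 4 platelet libraries lay below all 4 vehicle libraries. The log2 fold change was -0.30 ± 0.09 (adjusted p = 0.0917, and 0.00241 with the block).

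Among the regulators, Insig1, which retains the SREBP complex and is itself an SREBP target, stood at 49.3 ± 4.14 CPM with resting platelets against 45 ± 4.1 CPM (adjusted p = 0.377, and 0.0209 with the block). Scap, the escort protein of the SREBPs, stood at 57.5 ± 3.2 against 63.7 ± 4.02 CPM (adjusted p = 0.153, and 0.0064 with the block), a call that ended when GC content and length were corrected as well (adjusted p = 0.42). Srebf1, which encodes SREBP-1, and Srebf2 had log2 fold changes of -0.06 and 0.02 (adjusted p = 0.489 and 0.758 with the block). Of the fatty acid genes, Fads1 and Scd2 were higher and Elovl6 lower with the block (adjusted p = 0.0145, 0.0285 and 0.0317). Scd2 ranged from 85.4 to 150 CPM with vehicle and from 91.7 to 150 CPM with resting platelets, and its log2 fold change of 0.12 ranged from 0.00 to 0.31 with 1 library or number left out, with resting platelets 1 and vehicle 1 at these ends.

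Leaving out replicate 1 under the block left 12 calls, 10 higher and 2 lower, of which 11 were among the 15. Leaving out replicate 2 left 7, replicate 3 left 16 and replicate 4 left 8. Of all genes, 12.8%, 12.6%, 21.3% and 13.7% passed without replicates 1 to 4 in turn, against 21.5% with no replicate left out. Hmgcs1, Fdft1, Sqle, Cyp51 and Msmo1 were higher and Dhcr7 and Scap lower in all 4 of these fits. With correction for GC content and length beside the block there were 13 calls, 11 higher and 2 lower, without Mvk (adjusted p = 0.0949), Hsd17b7 (0.0509) and Scap and with Srebf2 (0.0106), whose log2 fold change without that correction was 0.02. Among all 14588 genes tested with the correction, 1571 were higher and 1118 lower.

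**Figure D1:**
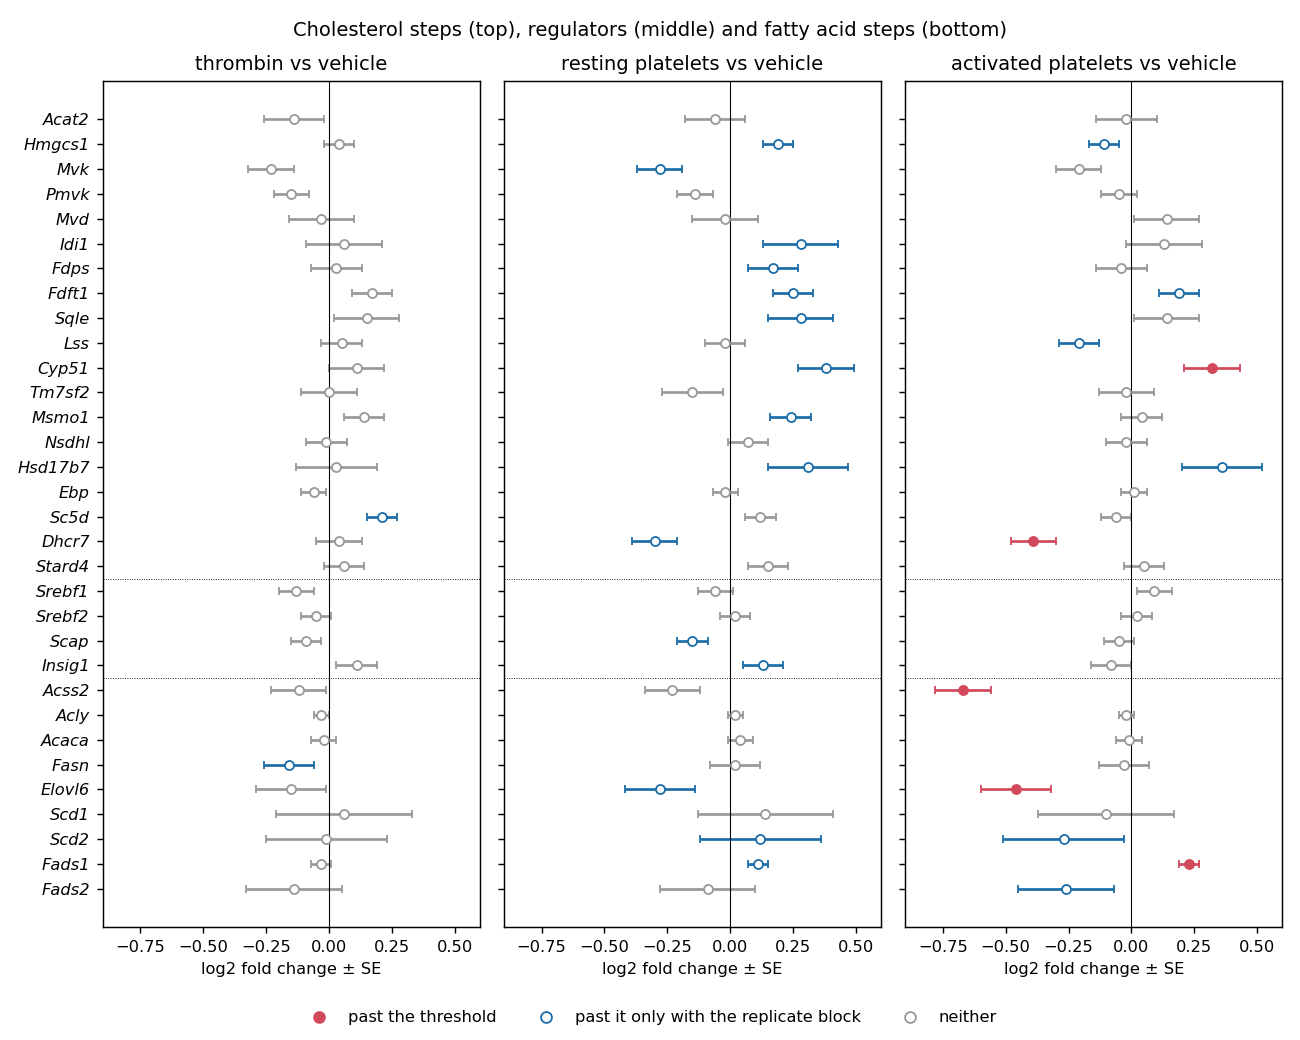
Log2 fold changes with standard errors (horizontal axis) of the 32 genes, 1 per line, for thrombin, resting platelets and activated platelets against vehicle, 4 libraries per group. Filled red points passed the threshold without the block, open blue points only with it, and grey points in neither. The resting platelet panel holds 15 open blue points and no filled ones, with values from -0.30 for Dhcr7 to 0.38 for Cyp51, and the activated platelet panel holds 5 filled points, with Acss2 lowest at -0.67.

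Activated platelets were compared with vehicle to ask what the combined stimulus does. Without the block, 2 of the 32 genes rose and 3 fell, 5 of 32 against 25.8% of all genes (12.2% higher and 13.6% lower). Of the 19 cholesterol genes Cyp51 rose and Dhcr7 fell, and of the 9 fatty acid genes Fads1 rose and Acss2 and Elovl6 fell. The median log2 fold change was -0.02 over the 32 genes and 0 over all genes. With the block 4 were higher and 7 lower, 11 of 32 against 42.5% of all genes (20% higher and 22.5% lower). In both fits a smaller share of the 32 genes passed than of all genes.

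Acss2 (chromosome 2, 155359963 to 155404663), the enzyme that makes acetyl-CoA from acetate, had the largest difference. It stood at 10.1, 9.59, 8.78 and 11.3 CPM in vehicle replicates 1 to 4, at 8.35, 9.78, 8.89 and 9.55 CPM with thrombin and at 9.2, 7.09, 9.44 and 8.27 CPM with resting platelets. With activated platelets it stood at 5.48, 7, 5.79 and 6.72 CPM. All 4 activated platelet libraries lay below every library of the other groups. The change was -37.2% (95% interval -46.4% to -26.5%), or -0.67 ± 0.11 in log2 (SE; adjusted p = 0.000226), and it passed in every alternative that was run. Elovl6 (chromosome 3, 129326035 to 129432144) fell from 8.23, 7.55, 8.2 and 8.28 CPM to 6.87, 4.44, 5.75 and 6.38 CPM. The groups did not overlap, and the change was -0.46 ± 0.14 in log2 (adjusted p = 0.0213). Its call ended without activated platelets 2 (adjusted p = 0.0613) and without replicate number 1, 2 or 3 in all groups (0.059 to 0.0897).

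Fads1 (chromosome 19, 10160245 to 10174238) rose. Its levels were 106, 99.5, 102 and 102 CPM with vehicle, 105, 101, 96.7 and 98 CPM with thrombin, 109, 110, 113 and 112 CPM with resting platelets and 123, 114, 125 and 120 CPM with activated platelets. The libraries of the 2 platelet groups lay above all 8 others and apart from each other. The rise over vehicle was 17.7% (95% interval 11.6% to 24.1%), or 0.23 ± 0.04 in log2 (adjusted p = 0.000151), and it passed in every alternative that was run. Fads2, the delta-6 desaturase next to Fads1 on chromosome 19, stood at 17.8, 13.4, 13.4 and 14.6 CPM with vehicle and at 15.6, 10.2, 9.99 and 13.7 CPM with activated platelets. It was lower within each number while the groups overlapped (log2 fold change -0.26 ± 0.19; adjusted p = 0.37, and 0.00513 with the block). Scd2 (chromosome 19, 44282115 to 44295303) went from 150, 85.4, 89 and 117 CPM to 123, 75.4, 66.7 and 101 CPM. It too was lower within each number and overlapped between groups (log2 fold change -0.27 ± 0.24; adjusted p = 0.455, and 1.39e-05 with the block), and its log2 fold change was -0.09 without vehicle 1, -0.44 without activated platelets 1 and -0.15 without activated platelets 3.

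Of the cholesterol genes, Dhcr7 fell from 21.9 ± 1.28 to 16.7 ± 1.18 CPM (SD, n = 4), with all 4 activated platelet libraries, at 18.4, 16, 16.5 and 15.8 CPM, below all vehicle libraries. Its log2 fold change was -0.39 ± 0.09 (adjusted p = 0.00627), and no alternative that was run ended the call. Cyp51 stood at 50.5, 37.8, 38.4 and 40.8 CPM with activated platelets, all above the vehicle libraries, with replicate 1 the highest in both groups. It rose by 24.9% (95% interval 5.83% to 47.4%; log2 fold change 0.32 ± 0.11; adjusted p = 0.0464). This call lay at the threshold: it ended without vehicle 2 (adjusted p = 0.119), 3 (0.102) or 4 (0.0825), without activated platelets 1 (0.17) or 4 (0.0685), without replicate number 2, 3 or 4 in all groups (0.0885 to 0.164), with limma-voom (0.0534) and with no filter on low counts (0.101), while with the block adjusted p was 1.16e-05. With the block Fdft1 and Hsd17b7 were also higher (adjusted p = 0.006 and 0.00264) and Hmgcs1 and Lss, the lanosterol synthase, lower (0.0122 and 0.00488), where the calls of Hmgcs1 ended without replicate 1 or 2, of Hsd17b7 without replicate 1 and of Lss without replicate 2. Hmgcs1 stood at 88.8, 79.6, 83.2 and 77.9 CPM, lower than vehicle in each number, with a difference of -0.11 ± 0.06 in log2.

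The groups of the regulators lay close together. Srebf1 (chromosome 11, 60089910 to 60113407) stood at 67.3, 73.8, 56.4 and 61.7 CPM with vehicle and at 70.9, 68.8, 72.1 and 63.3 CPM with activated platelets, with a 95% interval of the difference from -4.55% to 18.3%. Srebf2 (chromosome 15, 82031470 to 82089580) stood at 119, 119, 104 and 111 CPM and at 123, 114, 119 and 103 CPM (-6.81% to 10.1%). These groups overlapped, as did those of Scap (-10.8% to 5.11%) and of Insig1 (-15.5% to 5.71%). edgeR called 0 of the 4 regulators with or without the block, and 0 had p under 0.05 before adjustment in either, while with GC content and length corrected beside the block Srebf1 was higher (adjusted p = 0.00645). Insig1 stood at 47.3, 40.3, 42.4 and 40.2 CPM against 48.3, 41.2, 48.8 and 41.7 CPM with vehicle. It was lower in all 4 numbers, as were 8 of the 32 genes and 26.5% of all genes.

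Of the 9 fatty acid genes, 3 passed without the block and 5 with it, Scd2 among the latter, while Acly, Acaca, Fasn and Scd1 passed in neither fit. Acly (chromosome 11, 100367178 to 100418826) stood at 203, 200, 201 and 198 CPM with vehicle and at 203, 195, 202 and 189 CPM with activated platelets, with a 95% interval of -6.15% to 3.54%. Acaca, the acetyl-CoA carboxylase that makes malonyl-CoA, stood at 31.3 ± 1.41 and 31 ± 1.86 CPM (-7.89% to 6.46%), and Fasn at 88.3 ± 9.11 and 86.6 ± 12.6 CPM (-15.7% to 13.9%). Scd1, the desaturase that makes oleate, spread too widely for a like limit without the block, at 16.3 ± 4.96 and 15.2 ± 5.21 CPM (-37.3% to 39%). With the block its log2 fold change was -0.11 ± 0.08 (SE; adjusted p = 0.291). Sqle stood at 29.3, 18.4, 19.9 and 23.5 CPM with activated platelets, overlapping vehicle (log2 fold change 0.14 ± 0.13; adjusted p = 0.496, and 0.0891 with the block), and without activated platelets 1 its log2 fold change was 0.00. With GC content and length corrected beside the block Sqle was higher (adjusted p = 0.0462).

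The libraries of the 2 groups did not overlap for 5 of the 32 genes, the 5 called, against 26% of all genes. Platelet markers other than Pf4 were at least 188 CPM in each activated platelet library, and the levels of the 32 genes in platelets themselves were not measured here. The 8 lymphocyte markers summed to 18.6 to 32.8 CPM with vehicle and 6.86 to 12.8 CPM with activated platelets, with Cd3e and Cd3g at 0 in both groups. Most of the vehicle sum was Ighm, at a mean of 20.6 CPM. With activated platelets Ighm had a mean of 4.93 CPM, and Cd79b went from 6.04 to 4.37 CPM. The 8 neutrophil markers summed to 19.7 to 64.5 and 49.8 to 122 CPM, and the 8 erythroid markers to at most 0.0714 and to 7.62 to 14.2 CPM. The part of these cells in the results was not tested. Without replicate 1 there were 5 calls, 2 higher and 3 lower, and 10 with the block (35.9% of all genes).

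**Figure D2:**
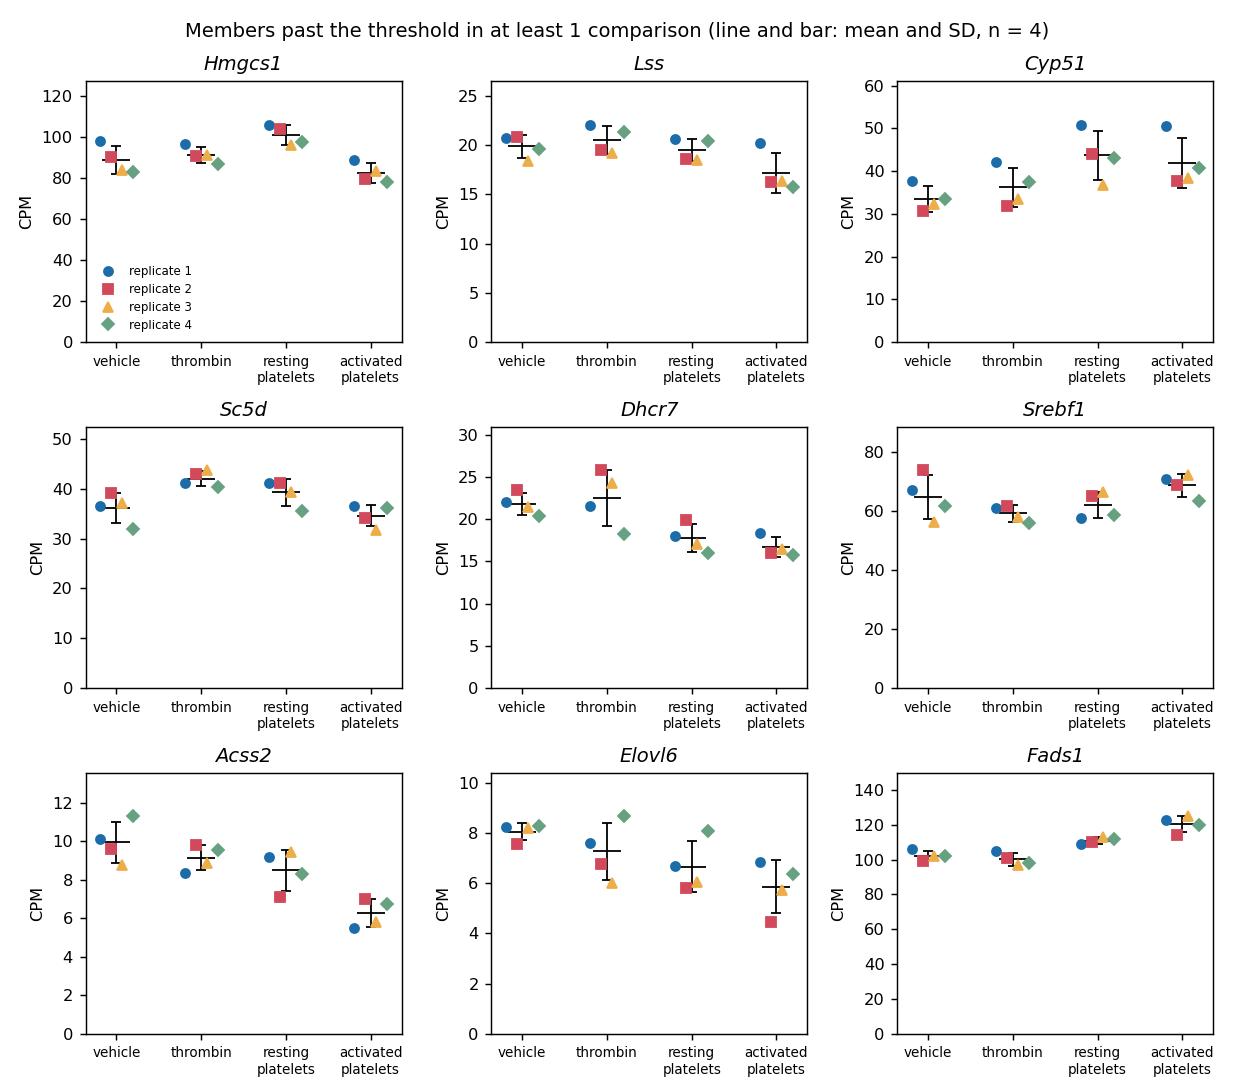
Levels (CPM, vertical axis) by library of the 9 genes past the threshold in at least 1 comparison without the block, in the 4 groups, with symbols for the replicate number, a horizontal line for the mean and a bar for the SD (n = 4). Acss2 with activated platelets sits at 5.48 to 7 CPM, below all other libraries, and Fads1 sits at 114 to 125 CPM, above them.

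Activated platelets were also compared with thrombin, where both groups had received the protease, to ask what the platelets add. Here 2 of the 32 genes rose and 4 fell, 6 of 32 against 25.4% of all genes (11.9% higher and 13.5% lower), and with the block 5 were higher and 8 lower (41.6% of all genes; 19.6% higher and 22% lower). Acss2 fell by 0.55 ± 0.11 in log2 (adjusted p = 0.0013), Dhcr7 by 0.43 ± 0.09 (adjusted p = 0.00312), Sc5d by 0.28 ± 0.06 (adjusted p = 0.00434) and Lss by 0.26 ± 0.08 (adjusted p = 0.0231). The groups did not overlap for Acss2 and Sc5d, and overlapped for Dhcr7 and Lss. Sc5d stood at 36.5, 34.1, 31.8 and 36.1 CPM with activated platelets, all below the 40.3 CPM of the lowest thrombin library. Lss (chromosome 10, 76367303 to 76392973) stood at 22.1, 19.5, 19.2 and 21.3 CPM with thrombin and at 20.2, 16.3, 16.4 and 15.8 CPM with activated platelets, where replicate 1 alone reached the thrombin range.

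Fads1 rose by 0.27 ± 0.04 in log2 against thrombin (adjusted p = 4.4e-05), with no overlap. Srebf1 rose from 61.1, 61.8, 58.1 and 55.8 to 70.9, 68.8, 72.1 and 63.3 CPM, again with no overlap (log2 fold change 0.22 ± 0.07; adjusted p = 0.0392). The calls of Srebf1 and Lss lay near the threshold. That of Srebf1 ended without thrombin 1 (adjusted p = 0.0559), 3 (0.0871) or 4 (0.09) and without activated platelets 1 (0.0804), 2 (0.0675) or 3 (0.1), and without number 1, 3 or 4 in all groups (0.0768 to 0.124). That of Lss ended without thrombin 1 (0.0734) or 4 (0.0649) and without activated platelets 2 (0.0612), 3 (0.0625) or 4 (0.0835), without number 2, 3 or 4 in all groups (0.0713 to 0.176) and when the pair of groups was fitted by itself (0.0735). Without replicate number 3 the calls of Sc5d (0.0763) and Dhcr7 (0.0509) ended as well, leaving 2 calls of 6. Without replicate 1 there were 5 calls, and 12 with the block (34.3% of all genes). The genes that passed with the block alone were Cyp51, Hsd17b7 and Fasn, which were higher, and Hmgcs1, Insig1, Elovl6 and Scd2, which were lower (adjusted p = 2.81e-05 to 0.01).

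The platelet groups differ in platelet activation, in thrombin and in platelet marker RNA, and the parts of these cannot be told apart. Between these groups, 1 of the 32 genes rose and 2 fell with activated against resting platelets. These were 3 of 32 genes, against 15.8% of all genes (7.34% higher and 8.49% lower). With the block 3 were higher and 9 lower (34.5% of all genes; 15.9% higher and 18.6% lower). Hmgcs1 fell from 106, 104, 96.2 and 97.6 CPM with resting platelets to 88.8, 79.6, 83.2 and 77.9 CPM with activated platelets. The groups did not overlap, and the change was -18.4% (95% interval -25% to -11.3%; log2 fold change -0.29 ± 0.06; adjusted p = 0.0023). No alternative that was run ended it. Acss2 fell by 0.45 ± 0.11 in log2 (adjusted p = 0.0105), a call that ended without replicate number 1 (0.153) or 3 (0.109). Fads1 rose by 0.12 ± 0.04 (adjusted p = 0.0306), and its call ended without resting platelets 1 (0.0871) or 2 (0.0725), without activated platelets 1 (0.0646) or 3 (0.0902), without number 1, 3 or 4 in all groups (0.094 to 0.133), with no filter on low counts (0.0835) and when the pair of groups was fitted by itself (0.0673). Without replicate 1 there was 1 call, and 10 with the block (25.7% of all genes).

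The genes lower with the block in this comparison were Hmgcs1, Fdps, Lss, Msmo1, Sc5d, Insig1, Acss2, Scd1 and Scd2, and the higher ones Fads1, Srebf1 and Scap. With GC content and length corrected as well, Lss (adjusted p = 0.0522), Sc5d (0.0705), Srebf1 (0.0524) and Scap (0.178) no longer passed, and Fads2 was lower (0.0257). Scd2 stood at 150, 103, 91.7 and 137 CPM with resting platelets and at 123, 75.4, 66.7 and 101 CPM with activated platelets. It was lower in each number while the groups overlapped (log2 fold change -0.40 ± 0.24; adjusted p = 0.298, and 8.88e-08 with the block). Insig1 was lower in each number as well, at 42.6 ± 3.3 against 49.3 ± 4.14 CPM (adjusted p = 0.0713, and 0.000197 with the block). Of all genes, 24.5% were lower in each number in this comparison. The comparisons of each platelet group with vehicle share the vehicle libraries. Side by side, their log2 fold changes for resting and activated platelets were 0.19 and -0.11 for Hmgcs1, 0.24 and 0.04 for Msmo1, 0.28 and 0.14 for Sqle, 0.13 and -0.08 for Insig1, 0.38 and 0.32 for Cyp51 and -0.30 and -0.39 for Dhcr7.

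Whether thrombin acts differently in the presence of platelets was tested by the interaction, the difference between activated and resting platelets minus the difference between thrombin and vehicle. Hmgcs1 and Sc5d fell in this test, 2 of 32 genes against 9.93% of all genes (4.56% positive and 5.37% negative). Hmgcs1 had a log2 difference of 0.04 between thrombin and vehicle and of -0.29 between the platelet groups, and the interaction was -0.33 ± 0.08 (SE; adjusted p = 0.0162). Sc5d had differences of 0.21 and -0.18, and an interaction of -0.40 ± 0.09 (adjusted p = 0.012). Within replicate numbers 1 to 4 the interaction of Hmgcs1 was -0.24, -0.39, -0.33 and -0.39, and that of Sc5d -0.34, -0.41, -0.54 and -0.31. Both were negative in 4 of 4 numbers, as were 12 of the 32 genes and 23.4% of all genes.

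With the block, 3 genes had a positive and 10 a negative interaction, 13 of 32 against 29.1% of all genes (13.1% positive and 15.9% negative). The negative ones were 7 cholesterol genes (Hmgcs1, Fdps, Fdft1, Sqle, Lss, Msmo1 and Sc5d), Insig1, Scd1 and Scd2, and the positive ones Srebf1, Scap and Fads1. With GC content and length corrected as well there were 0 positive and 8 negative, without Lss, Scd1, Srebf1, Scap and Fads1 (adjusted p = 0.0953 to 0.557). Among all 14588 genes tested with this correction, 1450 passed as positive and 2023 as negative. That correction moved the interaction of Hmgcs1 from -0.34 to -0.23 (adjusted p = 0.00148). The lowest value of the cholesterol genes moved from -0.40 to -0.28. Leaving out replicate 1 under the block left 1 positive and 7 negative (18% of all genes passed). Without the block, leaving out replicate number 1 or 3 ended the call of Sc5d (adjusted p = 0.116 and 0.098) and leaving out 2, 3 or 4 that of Hmgcs1 (0.095, 0.0792 and 0.0674).

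Replicate number separated these genes more than treatment did in many cases. The variation of log2 CPM over the 16 libraries was split into parts for group, number and remainder, as a description. The median part of replicate number was 45.0% over the 32 genes and 27.0% over all genes, and that of group 32.3% and 36.5%. Number took more than group in 19 of the 32 genes, against 42.2% of all genes. Fatty acid genes had the larger median part of number, 65.7%, against 42.8% for cholesterol genes. Scd1 stood first, with 86.9% for number and 6.19% for group, followed by Scd2 (81.2%), Fads2 (77.8%), Tm7sf2, a sterol reductase (72.7%), and Fasn (71.5%). At the other end, group took 88.7% of the variation of Fads1 and 77.9% of that of Acss2, with 3.41% and 3.12% for number.

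Replicate 1 was the highest library in all 4 groups for 13 of the 32 genes, against 2.56% of all genes. These were Acat2, Hmgcs1, Idi1, Fdps, Fdft1, Sqle and Cyp51 of the cholesterol genes, Srebf2, and Acaca, Fasn, Scd1, Scd2 and Fads2 of the fatty acid genes. Scd1 (chromosome 19, 44382889 to 44396148) stood at 23, 11.1, 14.8 and 16.3 CPM in vehicle replicates 1 to 4, at 23.4, 12.4, 13.9 and 18.3 CPM with thrombin, at 22.3, 14.6, 13.3 and 21.7 CPM with resting platelets and at 21.2, 10.4, 11.4 and 17.9 CPM with activated platelets. Numbers 1 and 4 were the highest and 2 and 3 the lowest in each group, and the mean of the highest number was 1.86-fold that of the lowest (1.74-fold for Scd2, 1.51-fold for Fads2, 1.26-fold for Fasn and a median of 1.14-fold over all genes). This order also held for Scd2, Fads2 and Fasn in each group.

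Stromal markers moved with the numbers. The 8 stromal markers summed to 5150, 2580, 2840 and 4390 CPM in vehicle replicates 1 to 4, to 4740, 2430, 2620 and 3940 CPM with thrombin, to 4720, 2500, 2910 and 4970 CPM with resting platelets and to 4410, 2050, 2410 and 3900 CPM with activated platelets. Numbers 1 and 4 were high here too, as for Scd1, Scd2, Fads2 and Fasn. Most of the sum was Col1a1 and Col1a2, while Dcn and Lum, 2 defining stromal markers, were at most 1.21 and 0.165 CPM. Of 7 adipocyte markers, Cidec, Lep and Cfd were at 0 in every library, and the sum was 20.4 to 24 CPM with vehicle and 24.2 to 28.5 CPM with activated platelets. Nearly all of this sum was Lipe, with means of 22.1 and 26.2 CPM, while Adipoq, Plin1 and Retn were at most 0.0802 CPM. The part of the stromal signal or of sex in the levels of these genes was not tested.

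**Figure D3:**
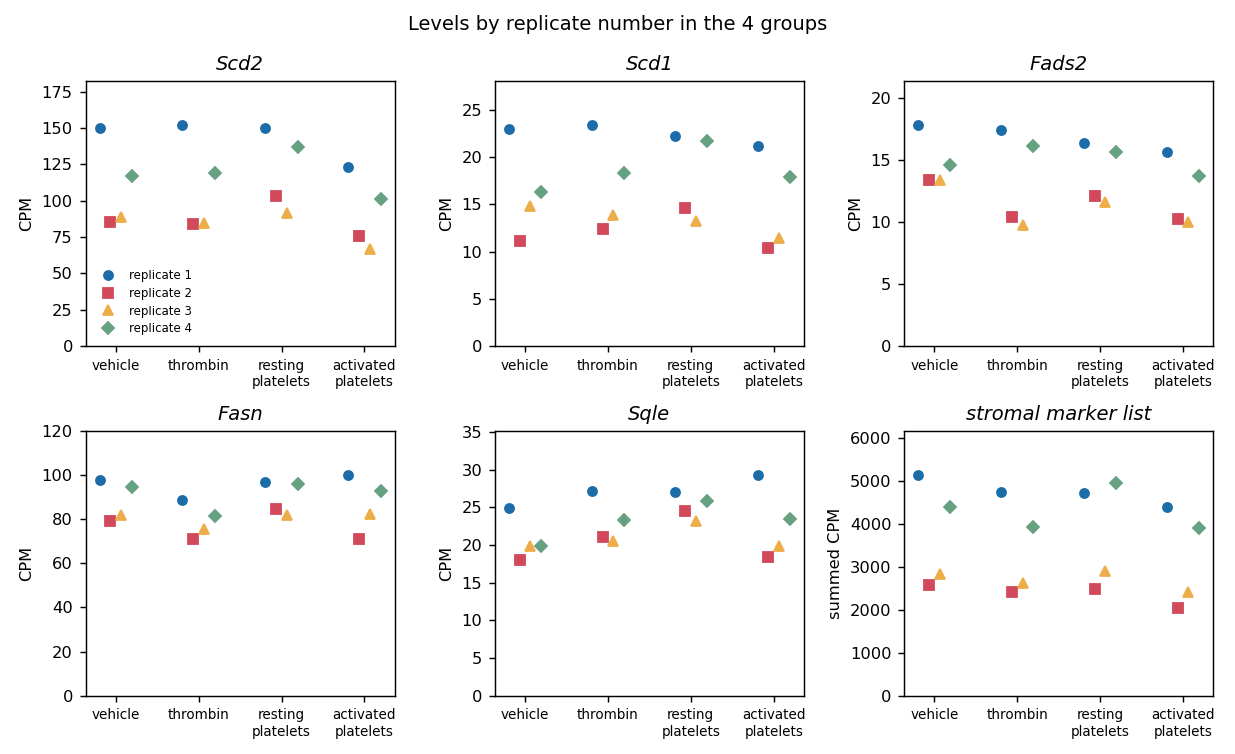
Levels (CPM, vertical axis) of Scd2, Scd1, Fads2, Fasn and Sqle and the summed level of 8 stromal markers in the 16 libraries, by group, with symbols for the replicate number. Replicate 1 is the highest library of each group in the 5 gene panels, at 123 to 152 CPM for Scd2, and the stromal sum of replicates 1 and 4 exceeds that of 2 and 3 throughout.

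**Figure D4:**
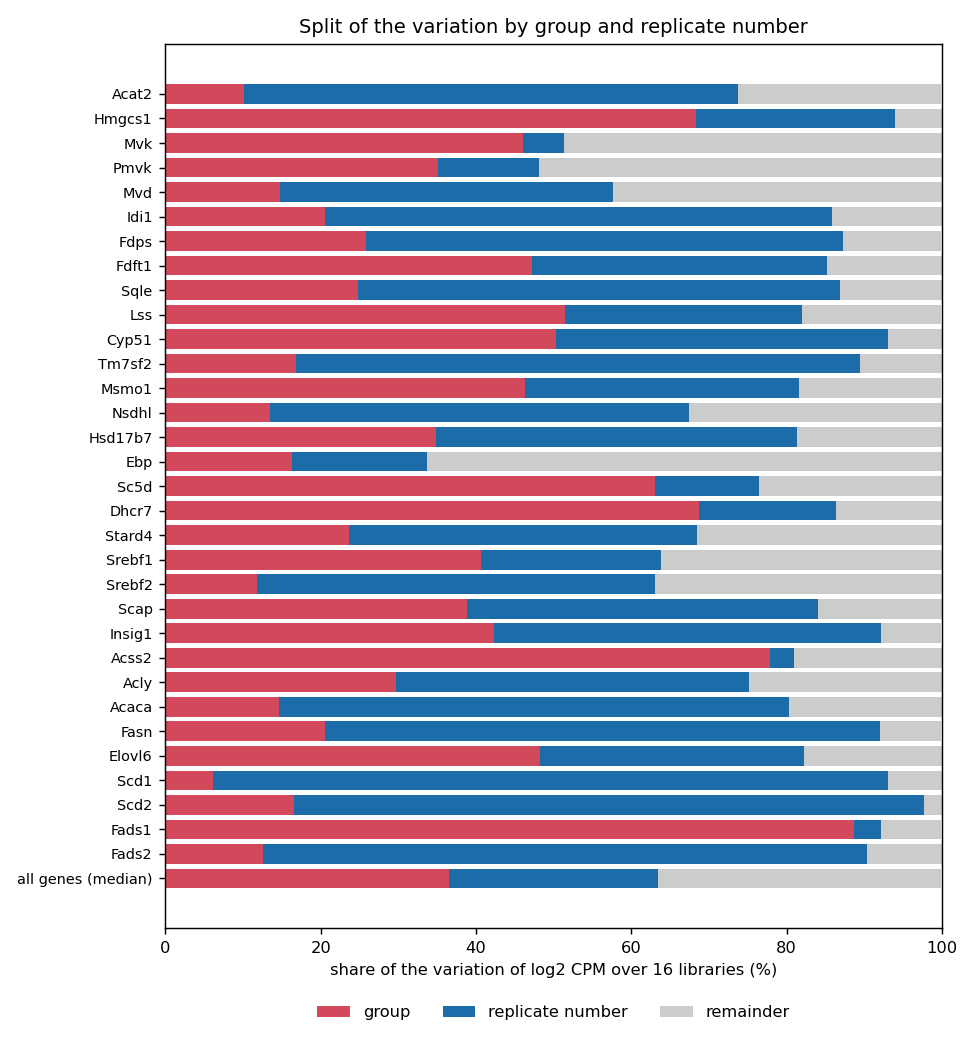
Share of the variation of log2 CPM over 16 libraries (horizontal axis, %) taken by group (red), replicate number (blue) and the remainder (grey) for each of the 32 genes, with the medians over all tested genes in the last bar. The blue part is largest for Scd1 (86.9%) and the red part for Fads1 (88.7%).

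Genes of the same pathways outside the 32 were followed through 2 lists. Of 16 other sterol genes and SREBP regulators, 5 rose and 2 fell with activated platelets against vehicle (25.8% of all genes passed), and 1 (Trib1) rose with resting platelets (3.39%). With thrombin edgeR called 0. Before adjustment p was under 0.05 there for 1 higher gene, beside 865 higher and 921 lower of all genes. Against thrombin 3 rose and 4 fell (25.4%), between the platelet groups 1 and 3 (15.8%), and in the interaction 1 and 2 (9.93%). With the block the higher and lower counts were 1 and 0 with thrombin (8.23% of all genes passed), 4 and 1 with resting platelets (21.5%) and 5 and 5 with activated platelets (42.5%) against vehicle, 4 and 4 against thrombin (41.6%), 2 and 4 between the platelet groups (34.5%) and 1 and 4 in the interaction (29.1%).

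Trib1, a pseudokinase linked to lipid levels, rose 1.09 ± 0.08 in log2, from 23.1 ± 2.13 to 49.3 ± 2.87 CPM (adjusted p = 4.59e-08). Erlin1, an endoplasmic reticulum scaffold, fell by 0.22 ± 0.04 (adjusted p = 0.00104) and Acat1, the mitochondrial thiolase, by 0.27 ± 0.08 (adjusted p = 0.0226). Of 21 tested genes of fatty acid and glycerolipid synthesis, 2 rose and 6 fell with activated platelets, and 1 (Acsl4) rose and 1 (Tecr, an enoyl-CoA reductase) fell with resting platelets, beside the same shares of all genes as above. With thrombin edgeR called 0, while before adjustment p was under 0.05 for 2 higher and 1 lower, beside 865 and 921 of all genes. Against thrombin 2 rose and 3 fell, between the platelet groups 2 and 0, and in the interaction 1 and 0. With the block these counts, in the same order from thrombin on, were 1 and 2, 4 and 3, 4 and 6, 3 and 4, 2 and 3, and 3 and 5. Acsl4, which activates arachidonate, rose by 0.52 ± 0.05 (adjusted p = 1.17e-06) and Lpin2, a phosphatidate phosphatase, by 0.62 ± 0.09 (adjusted p = 8.94e-05). Lpin1, of the same family, fell by 0.63 ± 0.15 (adjusted p = 0.00643), and Mid1ip1, a partner of acetyl-CoA carboxylase, by 0.31 ± 0.07 (adjusted p = 0.004). The call of Acat1 ended without vehicle 3 (0.0577) or 4 (0.0603) and without activated platelets 2 (0.0637) or 3 (0.0516), without number 3 or 4 in all groups (0.148 and 0.0698) and with the pair of groups by itself (0.0556). Those of Mid1ip1 and Lpin1 ended without number 1 (0.0622) and 2 (0.0662).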

How the data were processed

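Bulk mRNA sequencing of 16 libraries was used. Per the submitters' processing notes, the tools were cutadapt 2.5, STAR 2.7.2b and featureCounts 1.6.4 of Subread, and the builds GRCm39 and mm10; gene coordinates are those of the deposited table, on GRCm39. The sources used here do not give the settings for strand and for multiply mapped reads, so overlapping or near-identical genes are uncertain as single genes. The deposited values are the authors' estimated counts per gene with no normalization, of which 25.5% above 0 were not whole, although whole counts had been assumed in the plan. They were rounded, which changed 0.00734% of all counts, and no column lay outside the series.

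Genes were filtered by filterByExpr by group (minimum count 10), scaled by TMM and tested with edgeR 4.0.16 (R 4.3.3) by the robust quasi-likelihood test over all 16 libraries as 4 groups, in 6 comparisons, two-sided, with Benjamini-Hochberg adjustment over 15610 genes and a threshold of 0.05. CPM use TMM-scaled totals. Alternatives were DESeq2 1.42.0 and its size factors, limma-voom (limma 3.58.1), no filter, only the groups compared, each library or number left out, and the block. Added after seeing the data were the block with GC and length correction (GENCODE vM21, 93.5% of tested genes) and the block with each number left out. Of these fits, only edgeR without the block was also run on simulated counts, for activated platelets against vehicle. The simulated means held no effect of replicate number, so this run does not bear on the other fits.

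Replicate numbers paired the libraries: the 24 same-number correlations of deviations from group means were 0.29 to 0.62, those between other numbers -0.44 to 0.25, and in 16 of 16 libraries the highest correlation was with the same number. What the number stands for is not in the labels. No library pair agreed within counting noise (chi-square per degree of freedom 8.67 to 37.1 over 24 pairs).

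The genes, lists and tests were chosen with earlier results of these data known. Full values are given for up to 5 rising and 5 falling called genes per comparison, for 12 fixed genes, and in the other lists for up to 2 rising and 2 falling genes with the smallest p. Some genes that this rule names are counted in their lists but not reported here. The members' promoter sequences are from RefSeq on GRCm38.p6, used apart from the coordinates on GRCm39.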

Additional observations from a re-analysis of the deposited data

Results flagged for a closer look

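In 4 of the 128 sets of 4 libraries (32 genes in 4 groups), 1 library lay far from the other 3 by Dixon's criterion, where chance gives about 1 in 20. Fdps stood at 26.8 CPM in activated platelets 1 against 20.7 to 21.5 CPM in the other 3, and Lss at 20.2 CPM in the same library against 15.8 to 16.4 CPM. Stard4, the sterol carrier, stood at 30.1 CPM in thrombin 1 against 24.8 to 25.6 CPM. These 3 values came from libraries numbered 1. Fdps is among the 13 of the 32 genes that were highest in replicate 1 in every group, while Lss and Stard4 are not. Elovl6 stood at 7.55 CPM in vehicle 2 against 8.2 to 8.28 CPM.

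For 2 genes the interaction passed the threshold by the test of edgeR without the block. The log2 difference was -0.33 for Hmgcs1 (adjusted p = 0.0162) and -0.40 for Sc5d (adjusted p = 0.012). Each was negative in all 4 numbers, as were 23.4% of all genes. Both calls ended when some replicate numbers were left out, as given above. With the block and the correction for GC content and length the differences were smaller, at -0.23 for Hmgcs1 and not below -0.28 for any cholesterol gene. The thrombin doses of the groups cannot be shown to be equal from the labels.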

How the results depend on the processing

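With the replicate block the calls among the 32 genes were 2 for thrombin, 15 for resting platelets and 11 for activated platelets against vehicle, 13 for activated platelets against thrombin, 12 against resting platelets and 13 for the interaction. With the block and GC and length correction they were 0, 13, 13, 13, 9 and 8. Of all 14588 genes tested with that correction, 440, 2689, 6666, 6480, 5047 and 3473 passed. The block ended none of the 16 calls made without it, nor did the block with that correction. Beyond the calls given with it, the block by itself changed none among the 32 genes. The correction beside the block added and ended further calls, as given above. Leaving out 1 library or number gave 0, 0 to 1, 3 to 6, 2 to 6, 1 to 5 and 0 to 4 calls in the same order, and leaving out a number under the block 0 to 3, 7 to 16, 10 to 12, 11 to 13, 9 to 10 and 7 to 11. Against vehicle, 1.62% to 7.09%, 12.6% to 21.3% and 35.9% to 38% of all genes passed in these block fits. For the other comparisons the shares were 34.3% to 37.1%, 25.7% to 30.2% and 18% to 24.3%. Counts moved by over 1.5 times without number 2 or 3 (3 calls each) for activated platelets against vehicle, without number 3 (2) against thrombin, without number 1 or 3 (1 each), resting platelets 4 or activated platelets 1 (5 each) against resting platelets, and for the interaction without vehicle 3 or activated platelets 1 (4 each), without number 1, 2 or 4 (1 each) or 3 (0). For resting platelets against vehicle 1 gene passed without vehicle 1 or resting platelets 3. DESeq2 gave 6 for resting platelets against vehicle and 5 for the interaction. Every count with DESeq2's size factors, limma-voom, no filter or only the groups compared was within 1.5 times that reported. For activated platelets against vehicle, with 1 library or number left out, log2 fold changes ranged from -0.04 to 0.02 for Acaca, -0.03 to 0.00 for Acly, -0.10 to 0.05 for Fasn, -0.30 to 0.11 for Scd1, 0.00 to 0.24 for Sqle and -0.04 to 0.07 for Srebf2. With the block and the correction they were 0.02 for Scap and Fasn, 0.00 for Acly and 0.01 for Acaca. That correction reversed 5, 3, 3, 3, 1 and 4 of the 32 directions in the 6 comparisons, of which 0 had passed with or without the block. The cause was not tested. The planned correction on the files' own build was not run, as no sequences of that build were used here. Across genes, log2 fold changes followed GC content with Spearman rho of -0.44 for thrombin and -0.34 for resting platelets against vehicle, and 0.38 for the interaction (genes are not independent replicates). The lowest count of any of the 32 genes in a library was 128, and depth limits the precision of such genes most.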
